A study of Populus tomentosa with 9 samples.

Results

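The genes described here are 4 Populus genes for 2 steps on the route from sucrose to ethanol. POPTR_0017s02060 and POPTR_0018s07380 are described as sucrose synthases in the authors' deposited table, and POPTR_0011s07630 and POPTR_0016s12760 as pyruvate decarboxylases. They are 4 of the 41624 genes with expression values in this series. They were chosen from genes that the authors had listed as different between cell lines, so their line differences are given as a description only. The deposited descriptions name 4 sucrose synthase and 4 pyruvate decarboxylase genes in all, and the remaining 4 genes are shown beside the chosen ones.

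Sucrose synthase splits sucrose with UDP into UDP-glucose and fructose, and the reaction is reversible. UDP-glucose feeds cellulose and other cell wall polymers, and fructose enters glycolysis. In plants the enzyme is an alternative to invertase, which splits sucrose by hydrolysis, and several sucrose synthase genes are induced when oxygen is scarce. Pyruvate decarboxylase converts pyruvate to acetaldehyde, the first committed step of ethanol fermentation. Alcohol dehydrogenase then reduces acetaldehyde to ethanol and regenerates NAD+, which lets glycolysis run on when respiration is limited.

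RNA sequencing was done on cells of the Chinese poplar Populus tomentosa grown in suspension. The 9 libraries were single samples of 3 lines under 3 treatments: a wild type, a line labelled antisense and a line labelled overexpression, each as an untreated control, after 10 mM H2O2 or after 1 mM ASA, which stays abbreviated because its full name is not in the labels. All cells were grown shaken in the dark and taken 5 days after subculturing, and both treatments lasted 3 h. No library is labelled as a mock treatment of 3 h. A treatment and the time or handling that went with it therefore cannot be told apart. Each construct is represented by 1 line, and neither the gene it targets nor its promoter is named in the labels, so the targeted gene could not be read as a check. RNA extraction is described in the labels for stems of Arabidopsis, which contradicts the sample labels and the POPTR identifiers. Because RNA was taken from whole cultures, fewer cells expressing a gene and less RNA per cell cannot be told apart.

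Recovered totals were lowest in the antisense control, at 17102469 reads, and highest in the overexpression control, at 19629543. The overexpression H2O2 and ASA libraries stood apart from the other 7 on the first principal component, at 87.4 and 70.6 against -34.3 to -6.59. The H2O2 minus ASA difference across genes, which are not independent replicates, had a correlation of -0.838 between wild type and antisense and of 0.622 between wild type and overexpression, so the direction between the treated antisense libraries, as labelled, was on the whole opposite to that in the other lines. Whether the labels of the treated antisense libraries were exchanged was not tested, so antisense values and the 3-line means are given by label. The limma treatment differences, the line averages and the correlations between genes are also given with libraries left out. The 2 described genes of green tissue, a light-harvesting protein and a photosystem II assembly factor, summed to 6.70 to 47.3 FPKM in these dark-grown cells, with neither at 0.

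Levels are given in FPKM, fragments scaled by the authors to gene length and sequencing depth, so that levels of different genes can be set side by side. Of the 4 genes, 3 were among the most abundant transcripts of the cells. By mean over the 9 libraries, POPTR_0016s12760 ranked 126 with 543 FPKM. POPTR_0011s07630 ranked 199 with 415 FPKM, and POPTR_0018s07380 ranked 236 with 378 FPKM. The other sucrose synthase, POPTR_0017s02060, ranked 18974 with 3.49 FPKM. The abundant genes spanned 5.04-fold to 7.42-fold between their highest and lowest libraries, and POPTR_0017s02060 spanned 202-fold.

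**Figure D1:**
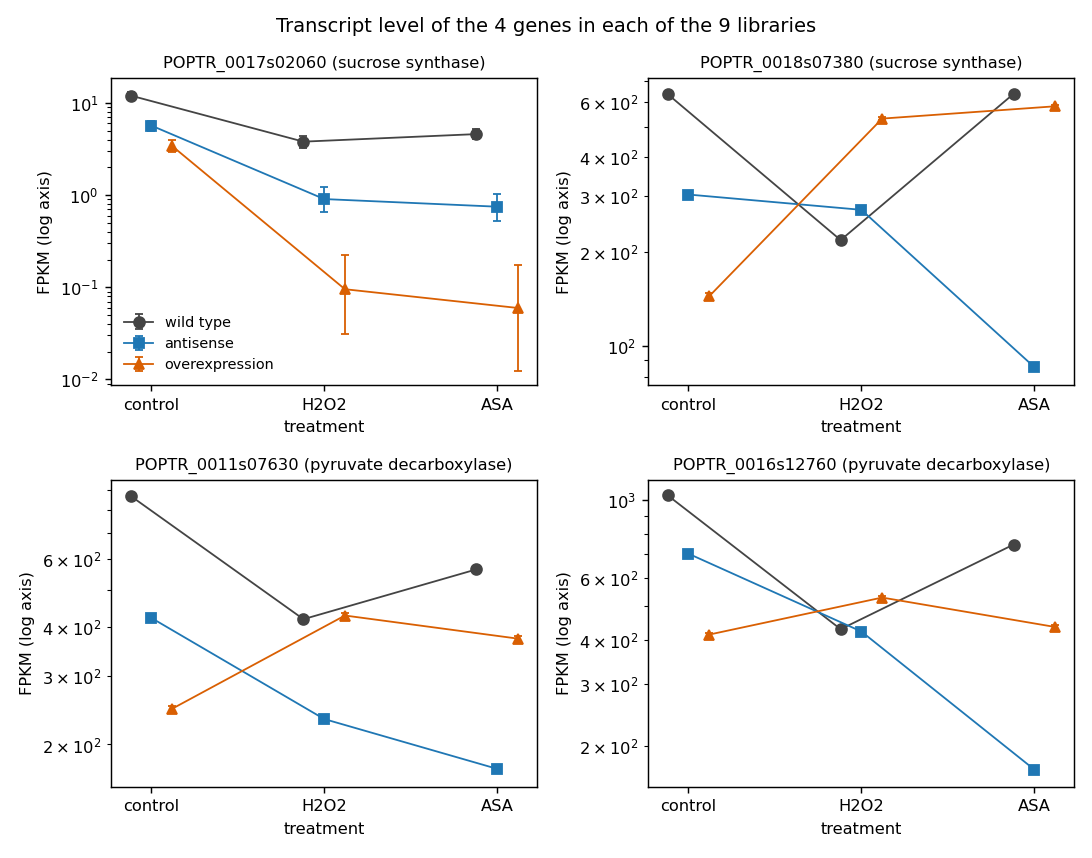
FPKM on a log axis against treatment for the 4 genes, 1 point per library, with lines joining the libraries of 1 cell line and bars giving the exact 95% counting interval. POPTR_0017s02060 was highest in the control of each line, from 12.1 FPKM in wild type to 3.42 in overexpression, while POPTR_0018s07380 ran from 85.7 FPKM in the library labelled antisense ASA to 636 in the wild type ASA library.

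POPTR_0018s07380, an abundant sucrose synthase, differed in direction between lines. The wild type control stood at 634 FPKM, the H2O2 library at 218 and the ASA library at 636. In antisense it stood at 304 FPKM in the control, 272 in the library labelled H2O2 and 85.7 in the library labelled ASA. The overexpression control stood at 144 FPKM, the H2O2 library at 530 and the ASA library at 580. Thus 1 treated library of wild type and 1 of antisense were well below their control, whereas both treated overexpression libraries were well above theirs. These levels rested on 4512 to 34104 reads, so counting error was small.

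As ratios, POPTR_0018s07380 was 2.92-fold lower after H2O2 than in the control in wild type (exact 95% interval 2.85 to 2.98; all such intervals cover counting error only). In the library labelled antisense ASA it was 3.54-fold lower than in its control (3.43 to 3.67). In overexpression it was 3.68-fold higher after H2O2 (3.59 to 3.77) and 4.02-fold higher after ASA (3.93 to 4.13). The remaining pairs were close to their controls, with the wild type ASA library at 1.00 times the wild type control (0.988 to 1.02) and the library labelled antisense H2O2 1.12-fold lower (1.09 to 1.15). In order of level, the wild type ASA and wild type control libraries could not be separated, and each further neighbour down to the antisense ASA library differed beyond counting error.

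POPTR_0017s02060, the rare sucrose synthase, was lower in the treated than in the control library in all 6 pairs. In wild type its control level was 12.1 FPKM, with 3.81 after H2O2 and 4.60 after ASA, from 625, 193 and 232 reads. In antisense it was 5.70 FPKM in the control and 0.908 and 0.750 in the libraries labelled H2O2 and ASA, from 264, 45 and 38 reads. In overexpression it was 3.42 FPKM in the control and 0.0953 and 0.0597 after H2O2 and ASA, from 182, 5 and 3 reads. Each control was above both treated libraries of its line, and wild type was above antisense and antisense above overexpression under every treatment. The control and treated libraries overlapped across lines, since the wild type treated libraries were above the overexpression control.

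The ratios of POPTR_0017s02060 are less precise than those of the other genes. In wild type it was 3.17-fold lower after H2O2 (2.69 to 3.74). In antisense it was 6.28-fold lower in the library labelled H2O2 (4.57 to 8.82) and 7.60-fold lower in the library labelled ASA (5.4 to 11). In overexpression, with 5 and 3 reads left, it was 35.9-fold lower after H2O2 (15.1 to 112) and 57.4-fold lower after ASA (19.3 to 281). The H2O2 and ASA libraries of a line were not separable by counting error in any line. The overexpression control was also within counting error of the wild type H2O2 library (ratio 1.11, 0.904 to 1.37).

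POPTR_0016s12760, the most abundant of the pyruvate decarboxylases, had its highest level in untreated wild type cells. The wild type control stood at 1030 FPKM, the H2O2 library at 430 and the ASA library at 747. In antisense it stood at 704 FPKM in the control, 423 in the library labelled H2O2 and 172 in the library labelled ASA. The overexpression control stood at 415 FPKM, the H2O2 library at 528 and the ASA library at 436. Both treated libraries were below the control in wild type and antisense and above it in overexpression, where the span was the smallest of the 3 lines.

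After H2O2, POPTR_0016s12760 was 2.40-fold lower in wild type (2.36 to 2.44) and 1.66-fold lower in antisense (1.63 to 1.69), and 1.27-fold higher in overexpression (1.25 to 1.30). The ASA library was 4.10-fold below the control in antisense (4.0 to 4.2) and 1.05-fold above it in overexpression (1.03 to 1.07). Its middle levels lay close together: in this order the overexpression ASA, wild type H2O2 and antisense H2O2 libraries were each within counting error of the next (ratios 1.01, 0.996 to 1.04, and 1.02, 0.996 to 1.03), and the overexpression control was 1.02-fold below the last of these. The antisense ASA library stood apart at the bottom, 2.42-fold below the next library (2.36 to 2.48).

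POPTR_0011s07630, the second pyruvate decarboxylase, was also highest in untreated wild type cells. Its wild type control had 872 FPKM, the H2O2 library 420 and the ASA library 564. Its antisense levels were 423 FPKM in the control, 232 in the library labelled H2O2 and 173 in the library labelled ASA. Its overexpression control had 247 FPKM, the H2O2 library 429 and the ASA library 374. As for the other pyruvate decarboxylase, the treated libraries were below the control in wild type and antisense and above it in overexpression.

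After H2O2, POPTR_0011s07630 was 2.08-fold lower in wild type (2.04 to 2.12) and 1.82-fold lower in antisense (1.77 to 1.87), and 1.74-fold higher in overexpression (1.70 to 1.78). The ASA library was 2.45-fold below the control in antisense (2.38 to 2.52) and 1.52-fold above it in overexpression (1.48 to 1.56). In the order of levels, the overexpression H2O2, antisense control and wild type H2O2 libraries were each within counting error of the next, while the first and the last of these were just beyond it (ratio 1.02, 1.00 to 1.04). Each other pair of neighbours differed beyond counting error.

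A pair of libraries carries no replicate spread, so these ratios were counted against a fixed size: a difference of 1 or more in log2(FPKM + 1), called 2-fold here, provided that the higher library reached 1 FPKM. After H2O2 in wild type, 4 of the 4 genes were lower by this measure, where 3.21% of all genes were lower and 3.46% higher. In the library labelled antisense ASA, 4 of 4 were again lower, against 4.93% of all genes lower and 3.12% higher. After ASA in wild type 1 of 4 was lower, POPTR_0017s02060, against 1.8% of all genes lower and 2.75% higher. In the library labelled antisense H2O2 it was again the only one of the 4 that was lower, against 1.22% of all genes lower and 1.14% higher. In overexpression, 1 of 4 was higher, POPTR_0018s07380, and 1 of 4 lower, POPTR_0017s02060, under both treatments. The backgrounds there were 5.65% higher and 9.52% lower after H2O2, and 4.87% higher and 8.85% lower after ASA. The H2O2 and ASA pairs of a line share their control library. The same libraries also entered the line comparisons from which the genes were chosen, so these counts are not independent of the choice. In the authors' entries for the 4 genes, the wild type control and wild type ASA libraries were the high side. The control and ASA libraries of both transgenic lines were the low side. For H2O2 the only entry was POPTR_0018s07380, higher in overexpression than in wild type (log2 fold 1.37).

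On the log2(FPKM + 1) scale, the median difference of the 4 genes was -1.35 after H2O2 in wild type and -1.88 in the library labelled antisense ASA, beside medians of 0.09 and 0.10 over all genes. It was 0.57 after H2O2 and 0.33 after ASA in overexpression, where the medians over all genes were -0.12 and -0.17. Relative to the median of all genes, no difference of the 4 genes in these 4 pairs changed direction. After ASA in wild type POPTR_0018s07380 was at 0.00, beside a median of -0.03.

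**Figure D2:**
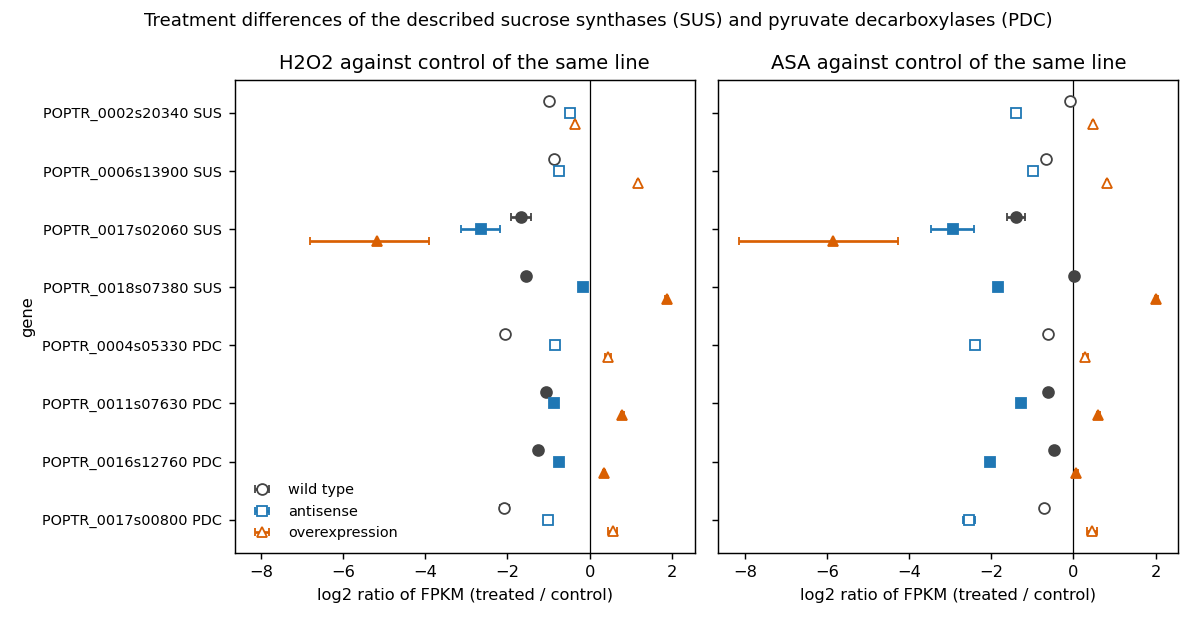
Log2 ratio of FPKM, treated over control of the same line, for the 8 described sucrose synthase (SUS) and pyruvate decarboxylase (PDC) genes after H2O2 and ASA, 1 point per line with exact 95% counting intervals; filled symbols are the 4 genes described here. Each PDC is left of 0 in wild type and antisense and right of 0 in overexpression, while POPTR_0017s02060 is left of 0 in every line.

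Whether a treatment difference was shared by the 3 lines was tested with limma on all 9 libraries, with line and treatment as additive terms. All 4 genes passed the filter of a mean of 1 FPKM, and none of them passed the test in any treatment contrast. Of 23350 genes tested, 1 passed for H2O2 against control (0.00428%), 0 for ASA against control (0%) and 0 for H2O2 against ASA (0%). At an unadjusted p below 0.05 these counts were 1535, 1325 and 84, and limma voom on recovered reads called 0 in each. The 1 gene past the threshold, POPTR_0019s13100, is on none of the gene lists used here and was lower by 2.37 ± 0.18 (log2, SE; limma adjusted p = 0.0483).

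POPTR_0017s02060 came closest. Its mean was 7.07 ± 4.48 FPKM in the 3 controls, 1.60 ± 1.95 after H2O2 and 1.80 ± 2.45 after ASA (SD over 3 lines, which includes the line differences). On the log2(FPKM + 1) scale the H2O2 difference was -1.76 ± 0.22 (SE) with a limma adjusted p of 0.336, and the ASA difference was -1.74 ± 0.22 with an adjusted p of 0.268. In both contrasts its p-value had rank 5 among all 23350 genes, and the lower direction was seen in 3 of 3 lines. The 2 contrasts share the 3 control libraries. The same libraries also entered the line comparisons from which the gene was chosen. The 2 ranks are therefore not independent of each other or of that choice. Without all 3 overexpression libraries the differences were -1.63 and -1.58, and without all 3 antisense libraries -1.73 and -1.64, with no call in either case. The size depended on the pseudocount: with 0.1 in place of 1 the differences were -2.78 and -2.87, and with 5 they were -0.85 and -0.82, again with no call.

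POPTR_0018s07380 had a mean of 361 ± 250 FPKM in the controls, 340 ± 167 after H2O2 and 434 ± 303 after ASA. Its limma differences were 0.06 ± 0.76 for H2O2 and 0.06 ± 0.76 for ASA (adjusted p = 0.993 and 0.999), with opposite directions in wild type and overexpression behind the H2O2 value. Without all 3 overexpression libraries they became -0.85 and -0.91, and without all 3 antisense libraries 0.17 and 1.00. The sign of its mean difference thus depended on which lines were included.

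POPTR_0016s12760 averaged 716 ± 308 FPKM in the controls, 460 ± 59.0 after H2O2 and 451 ± 288 after ASA, with limma differences of -0.55 ± 0.45 and -0.81 ± 0.45 (adjusted p = 0.845 and 0.899). POPTR_0011s07630 averaged 514 ± 322, 361 ± 111 and 370 ± 195 FPKM, with differences of -0.37 ± 0.39 and -0.44 ± 0.39 (adjusted p = 0.875 and 0.949). Without all 3 overexpression libraries the values grew to -1.0 and -1.25 for POPTR_0016s12760 and to -0.96 and -0.96 for POPTR_0011s07630, still with no call. Without all 3 antisense libraries they shrank to -0.46 and -0.20, and to -0.13 and -0.01. Single libraries moved them as well. With 1 library left out at a time, the H2O2 difference of POPTR_0016s12760 ran from -0.99 without the overexpression control to -0.11 without wild type H2O2, and its ASA difference from -1.25 without the overexpression control to -0.24 without antisense ASA. For POPTR_0011s07630 the ranges were -0.92 to -0.04 and -0.99 to -0.10, in both cases from the fit without the overexpression control to the fit without the antisense control. The medians over all genes were -0.01 for H2O2 and -0.05 for ASA.

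Averaged over the lines, the H2O2 minus ASA difference of the 4 genes lay between -0.02 and 0.26 on the log2(FPKM + 1) scale (limma adjusted p = 0.999999 for each). Within wild type, POPTR_0018s07380 was 2.92-fold lower after H2O2 than after ASA (2.86 to 2.99), the only one of the 4 genes past 2-fold, where 4.99% of all genes were lower. Between the treated antisense libraries the direction was the opposite. There POPTR_0018s07380 was 3.17-fold higher (3.06 to 3.28) and POPTR_0016s12760 2.47-fold higher (2.40 to 2.53) in the library labelled H2O2, where 5.37% of all genes were higher. In overexpression none of the 4 genes reached 2-fold, as 7.3% of all genes did, and POPTR_0018s07380 was 1.09-fold lower after H2O2 (1.08 to 1.11).

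The differences between lines are the values from which the genes were chosen, so they are described here with no test. In the authors' deposited tables each of the 4 genes was listed as lower in the overexpression control. The entries reach 1 or more in absolute log2 fold against wild type, and their largest q-value is 0.00498. The authors' deposited table gave log2 folds of -2.27 for POPTR_0018s07380, -1.95 for POPTR_0017s02060, -1.95 for POPTR_0011s07630 and -1.44 for POPTR_0016s12760. For the antisense control the authors' deposited table listed POPTR_0018s07380 at -1.15 and POPTR_0011s07630 at -1.13. On the log2(FPKM + 1) scale, 4 of 4 genes were at least 2-fold lower in the overexpression control (4.77% of all genes). In the antisense control 2 of 4 were (2.15%). By the ratio of FPKM itself, POPTR_0017s02060 was also past 2-fold in the antisense control, at a log2 ratio of -1.08.

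Among treated libraries, the antisense ASA library was at least 2-fold below the wild type ASA library for 4 of 4 genes (8.06% of all genes), and the authors' deposited table listed POPTR_0018s07380 at -3.12, POPTR_0016s12760 at -2.35 and POPTR_0011s07630 at -1.93. In overexpression after H2O2, 1 of 4 genes was higher (4.33% of all genes) and 1 of 4 lower (8.28%). The higher one was POPTR_0018s07380, at 1.37 in the authors' deposited table. After ASA, 1 of 4 was lower (8.46%), and between the H2O2 libraries of antisense and wild type also 1 of 4 (3.78%), in both cases POPTR_0017s02060. For overexpression after ASA the authors' deposited table gave POPTR_0017s02060 a log2 fold of -6.24 with the scaled signal at 0, although 3 reads were recovered from the FPKM value.

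The smallest listed fold among the 4 genes was that of POPTR_0011s07630 in the antisense control, at -1.13 in the authors' deposited table. The nearest unlisted value by FPKM was that of POPTR_0017s02060 in the antisense control, a log2 ratio of -1.08. The nearest under the threshold of 1 was POPTR_0011s07630 between the antisense and wild type H2O2 libraries, at -0.85. Larger unlisted differences belonged to POPTR_0017s02060, at -2.07 and -2.62 in the treated antisense libraries and -5.32 in overexpression after H2O2, from 5 to 45 reads in the transgenic library. No q-value is given for unlisted differences, so why those past the fold threshold were left out could not be read. Averaged over treatments, antisense was below wild type by a log2(FPKM + 1) difference of -0.90 to -1.33 for the 4 genes. For overexpression the average was -2.03 for POPTR_0017s02060, -0.33 for POPTR_0018s07380, -0.79 for POPTR_0011s07630 and -0.60 for POPTR_0016s12760. Over all genes limma called 19 (0.0814%) for antisense and 668 (2.86%) for overexpression.

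These line averages rested in part on single libraries. With 1 library left out at a time, the overexpression average of POPTR_0018s07380 ran from -1.11 to 0.61, and it was above 0 without the overexpression control (0.61), the wild type control (0.09) or wild type ASA (0.04). Without the overexpression control the averages of POPTR_0011s07630 and POPTR_0016s12760 were -0.24 and -0.15, and their lowest values were -1.12 without overexpression H2O2 and -1.04 without wild type H2O2. For POPTR_0017s02060 the overexpression average stayed between -2.24 and -1.85. The antisense averages stayed below 0, from -1.53 to -1.15 for POPTR_0017s02060, -1.99 to -0.32 for POPTR_0018s07380, -1.53 to -0.90 for POPTR_0011s07630 and -1.34 to -0.33 for POPTR_0016s12760. The highest of these values for POPTR_0018s07380, POPTR_0011s07630 and POPTR_0016s12760 came without antisense ASA.

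Among the described genes, the 2 chosen pyruvate decarboxylases supplied most of their family's transcripts. The 2 chosen sucrose synthases did not. Descriptions exist only for the 2976 genes that the authors listed as different between lines. Any unlisted gene of either family is therefore missing from the sums, shares and ratios given here. The 4 pyruvate decarboxylase genes summed to 2276 FPKM in the wild type control, 939 after H2O2 and 1551 after ASA. In antisense they summed to 1375, 789 and 391 FPKM, and in overexpression to 769, 1108 and 946, in the same order of treatments. POPTR_0016s12760 and POPTR_0011s07630 together made up 81.9% to 90.4% of these sums. The total of these 4 genes was thus highest in untreated wild type cells and lowest in the library labelled antisense ASA.

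The sucrose synthase sum was 1685 FPKM in the wild type control, 765 after H2O2 and 1475 after ASA. It was 1200, 874 and 463 FPKM in antisense and 757, 1408 and 1528 FPKM in overexpression. POPTR_0018s07380 with POPTR_0017s02060 made up 18.7% to 43.4% of it. The rest came from POPTR_0002s20340, which the authors' deposited table names SUSY3, and from POPTR_0006s13900. The summed pyruvate decarboxylase level divided by the summed sucrose synthase level went from 1.35 in the wild type control to 0.619 in the overexpression ASA library, and in each line it was higher in the control than in both treated libraries.

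**Figure D3:**
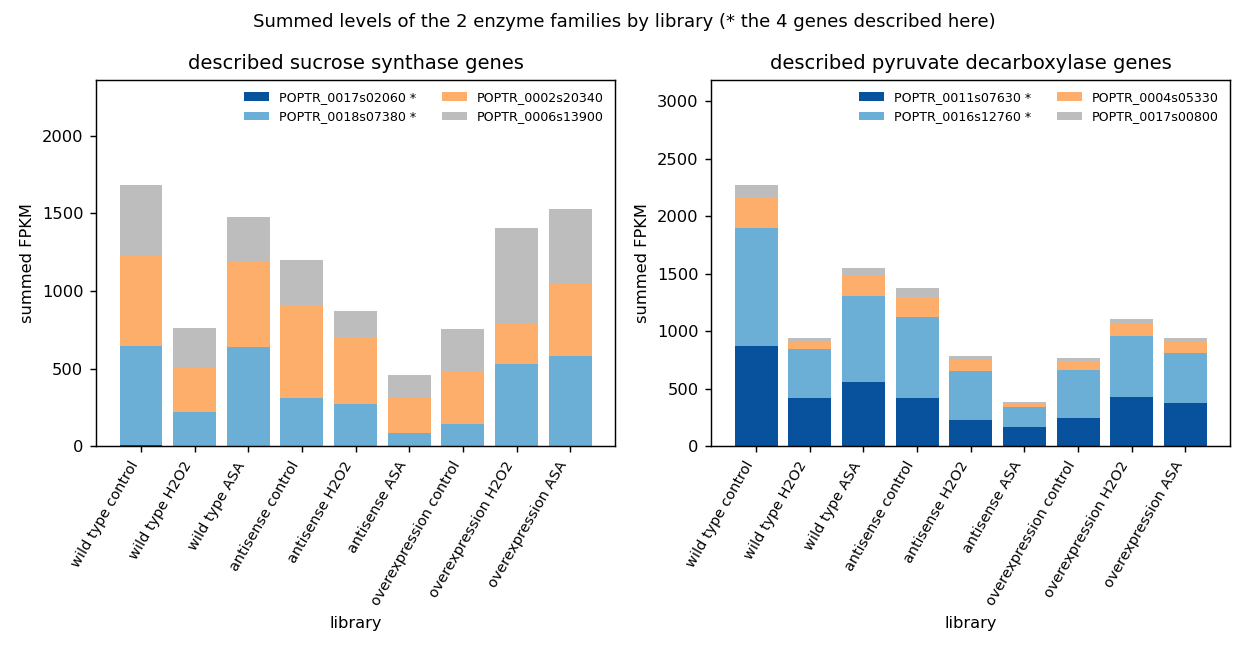
Stacked bars of FPKM per library for the described sucrose synthase genes (left) and pyruvate decarboxylase genes (right), with an asterisk on the 4 genes described here. Both sums are lowest in the library labelled antisense ASA, at 463 and 391 FPKM, and in overexpression the sucrose synthase sum goes from 757 FPKM in the control to 1408 and 1528 in the treated libraries.

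The other described pyruvate decarboxylases went in the same directions as the chosen ones, at lower levels. Both had been listed by the authors as below wild type in the overexpression control and antisense ASA libraries, as POPTR_0016s12760 was. Their likeness to it is therefore not independent of how these genes came to be described. POPTR_0004s05330 stood at 269, 64.9 and 176 FPKM in wild type, at 173, 95.6 and 32.8 in antisense and at 76.6, 104 and 93.7 in overexpression, each as control, H2O2 and ASA. POPTR_0017s00800 stood at 106, 25.0 and 64.6 FPKM in wild type, at 75.8, 37.7 and 13.1 in antisense and at 30.9, 45.8 and 42.3 in overexpression. Both were at least 2-fold lower after H2O2 in wild type and in the library labelled antisense ASA, as the chosen ones were. Of all genes, 3.21% and 4.93% were lower in these pairs. In overexpression 4 of 4 pyruvate decarboxylases were above the control under both treatments, but 0 of 4 by 2-fold. There 5.65% of all genes were 2-fold higher after H2O2 and 4.87% after ASA.

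The other described sucrose synthases split. Both had been listed by the authors as below wild type in the antisense ASA library, as POPTR_0018s07380 was. POPTR_0006s13900 was also listed as above wild type in overexpression after H2O2, again as POPTR_0018s07380 was. Likeness to it is therefore not independent of how these genes came to be described. POPTR_0006s13900 stood at 454, 251 and 285 FPKM in wild type, at 297, 178 and 151 in antisense and at 273, 615 and 482 in overexpression, in the order control, H2O2 and ASA. Like POPTR_0018s07380 it was above the control in both treated overexpression libraries. POPTR_0002s20340 stood at 585, 293 and 550 FPKM in wild type, at 594, 423 and 226 in antisense and at 337, 263 and 466 in overexpression, and its overexpression H2O2 library was below the control. At 2-fold or more, 2 of 4 sucrose synthases were lower after H2O2 in wild type (3.21% of all genes). In the library labelled antisense ASA 3 of 4 were lower (4.93%). After H2O2 in overexpression 2 of 4 were higher (5.65% of all genes) and 1 of 4 lower (9.52%).

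Within a library, the 2 pyruvate decarboxylases kept close to each other. The ratio of POPTR_0016s12760 to POPTR_0011s07630 lay between 0.992 in the library labelled antisense ASA and 1.82 in the library labelled antisense H2O2. The ratio of POPTR_0018s07380 to POPTR_0017s02060 went from 42.1 in the overexpression control to 5560 and 9725 in the overexpression H2O2 and ASA libraries. The sucrose synthase pair was therefore most unequal where POPTR_0018s07380 was high and POPTR_0017s02060 was down to a few reads. Over the 9 libraries, which share lines and treatments, Pearson's r of log2(FPKM + 1) was 0.901 between the pyruvate decarboxylases, 0.807 and 0.820 between POPTR_0018s07380 and each of them, and 0.115 between the sucrose synthases. Without both treated overexpression libraries, over 7 libraries, r was 0.906 between the pyruvate decarboxylases and 0.716 between the sucrose synthases POPTR_0018s07380 and POPTR_0017s02060. Without both treated antisense libraries these values were 0.876 and -0.158, and r between POPTR_0018s07380 and POPTR_0016s12760 was 0.583. The low r of the sucrose synthase pair thus rested on the treated overexpression libraries, and these settings were chosen after seeing the data.

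The genes most like each of the 4 over the 9 libraries, by the highest r of log2(FPKM + 1), were given as a description. For POPTR_0016s12760, 2 of the nearest 3 were the other pyruvate decarboxylases, POPTR_0004s05330 (0.976) and POPTR_0017s00800 (0.965), with POPTR_0003s11040 (0.967), which has no deposited description, between them. For POPTR_0011s07630 the nearest was POPTR_0010s14480 (0.976), a LAG1-type gene of the family known for ceramide synthesis, before POPTR_0005s08100 (0.962) and POPTR_0004s05800 (0.961), both without a description.

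For POPTR_0018s07380 the nearest were POPTR_0007s04560 (0.990), a prenylcysteine oxidase, POPTR_0013s00550 (0.984), a synthetase of the methyl donor S-adenosylmethionine, and POPTR_0019s09310 (0.977), without a description. For POPTR_0017s02060 they were POPTR_0019s14250 (0.982), without a description, POPTR_0008s23030 (0.976), of the Bet v I allergen family, and POPTR_0003s02480 (0.975), a purple acid phosphatase. The mean profile of the 4 genes was nearest to POPTR_0012s09910 (0.965), an Exo70 subunit of the exocyst that tethers secretory vesicles, to POPTR_0256s00200 (0.958), a glutathione S-transferase, and to POPTR_0003s11040 (0.946). For the 12 nearest genes of the single genes, r stayed between 0.953 and 0.994 without both treated overexpression libraries and between 0.909 and 0.996 without both treated antisense libraries.

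The enzymes around these steps were taken from the deposited descriptions. None of the described genes in these lists passed limma in any treatment contrast, so what follows gives library pairs without a test. The lists hold only genes that the authors had listed as different between lines, so their counts are not comparable one to one with those over all genes. Over all genes, 3.21% were lower and 3.46% higher after H2O2 in wild type, with a median difference of 0.09, and 4.93% lower and 3.12% higher in the library labelled antisense ASA, with a median of 0.10. In overexpression 9.52% were lower and 5.65% higher after H2O2 (median -0.12), and 8.85% lower and 4.87% higher after ASA (-0.17). The list next to pyruvate decarboxylase, alcohol dehydrogenase, held 17 described genes, a family that also includes enzymes acting on other alcohols such as those of lignin synthesis. At 2-fold or more, 10 of 17 were lower and 1 of 17 higher after H2O2 in wild type, with a median of -1.43 on the log2(FPKM + 1) scale beside 0.09 over all genes. In the library labelled antisense ASA, 12 of 17 were lower and 0 higher, with a median of -1.97. In overexpression 7 were higher and 5 lower after H2O2, and 5 higher and 1 lower after ASA, with medians of 0.08 and 0.62 beside -0.12 and -0.17 over all genes. The 2 library pairs in which 4 of the 4 chosen genes were lower were thus also the pairs with the most alcohol dehydrogenases lower.

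The most abundant of that list did not reach 2-fold below its control in any line. POPTR_0002s07290, which the authors' deposited table names ADH1, stood at 2156, 2308 and 2316 FPKM in the wild type control, H2O2 and ASA libraries. It stood at 1181, 1140 and 923 FPKM in antisense and at 995, 3134 and 3119 in overexpression. It was near its control in wild type and antisense and more than 2-fold above it in both treated overexpression libraries, with a log2(FPKM + 1) difference of 1.65 under each treatment. Its lowest level was still in the library labelled antisense ASA. Against wild type, the authors' deposited table listed POPTR_0002s07290 at -1.55 there and at -1.25 in the overexpression control. POPTR_0007s03100 stood at 259, 38.6 and 118 FPKM in wild type, at 211, 52.7 and 15.0 in antisense and at 121, 127 and 104 in overexpression, with its treated libraries well below the control in the first 2 lines. POPTR_0007s03910 stood at 165, 46.3 and 85.4 FPKM in wild type, at 138, 52.1 and 18.2 in antisense and at 93.6, 253 and 164 in overexpression. Like the pyruvate decarboxylases, it was below the control in wild type and antisense and above it in overexpression.

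Glycolysis, the route between the 2 chosen steps, had 16 described genes. After H2O2 in wild type 0 were higher and 3 lower at 2-fold (median -0.29), and in the library labelled antisense ASA 0 were higher and 4 lower (-0.46). In overexpression 8 were higher and 1 lower after H2O2 (0.97), and 7 higher and 1 lower after ASA (0.76), where 5.65% and 4.87% of all genes were higher and the medians over all genes were -0.12 and -0.17. Fructose-bisphosphate aldolase POPTR_0006s17940 stood at 667 FPKM in the overexpression control, 2056 after H2O2 and 1812 after ASA, with log2 differences of 1.62 and 1.44. Glyceraldehyde 3-phosphate dehydrogenase POPTR_0010s06560 stood at 1004, 2075 and 1668 FPKM in overexpression, and enolase POPTR_0015s14380 at 1225, 1426 and 1220.

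Genes of low-oxygen biology were looked at as a reference for fermentation. POPTR_0019s08380, which carries a hypoxia-induced protein domain, stood at 106, 61.7 and 241 FPKM in the wild type control, H2O2 and ASA libraries and at 59.0, 69.7 and 11.7 in antisense. The overexpression control stood at 17.7 FPKM, the H2O2 library at 686 and the ASA library at 651, a log2(FPKM + 1) difference of 5.20 and 5.12. The other genes with this domain, POPTR_0013s01690 and POPTR_0005s02440, were within 2-fold of the control in both overexpression pairs. The leghaemoglobin-type globin POPTR_0009s11390, of a family of oxygen and nitric oxide binding proteins, stood at 579, 2317 and 2713 FPKM in overexpression, with log2 differences of 2.0 and 2.23, and at 1503, 1052 and 1642 FPKM in wild type. The truncated globin POPTR_0006s26070 stayed within 2-fold of the control in overexpression, at 58.6, 86.7 and 69.8 FPKM.

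On the sucrose side, the 1 described gene of the invertase family, POPTR_0003s11210 (glycosyl hydrolase family 32), stood at 88.8, 18.4 and 134 FPKM in wild type, at 39.1, 76.1 and 14.9 in antisense and at 22.8, 9.50 and 31.1 in overexpression. Like POPTR_0018s07380 it was more than 2-fold lower after H2O2 in wild type and in the library labelled antisense ASA, and unlike it, it was below the control after H2O2 in overexpression. The sucrose-phosphate synthase POPTR_0025s00740, of the sucrose-making route, was highest in the wild type control at 31.3 FPKM and lowest after H2O2 in overexpression at 4.09. The UDP-glucose pyrophosphorylase POPTR_0017s01390, which interconverts UDP-glucose and glucose 1-phosphate, was below its control in 6 of 6 pairs but never by 2-fold. The second one, POPTR_0010s19320, was also below its control in 6 of 6. It was at least 2-fold lower in the library labelled antisense H2O2 and in both treated overexpression libraries. Of all genes, 1.22%, 9.52% and 8.85% were lower by 2-fold in antisense H2O2, overexpression H2O2 and overexpression ASA.

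Among users and carriers of sugar, 3 of 10 described cellulose synthases were at least 2-fold lower and 1 higher both after H2O2 in wild type and in the library labelled antisense ASA, with medians of -0.91 and -0.85 beside 0.09 and 0.10 over all genes. Of all genes, 3.21% and 4.93% were lower in those pairs, and 3.46% and 3.12% higher. In overexpression 0 cellulose synthases were higher and 1 lower under each treatment, with 9.52% and 8.85% of all genes lower there and 5.65% and 4.87% higher. Of 6 sugar transporters, 2 were lower and 0 higher after H2O2 in wild type, and 2 were higher and 2 lower after H2O2 in overexpression. The most abundant transporter, POPTR_0004s03360, stood at 90.1 FPKM in the overexpression control, 214 after H2O2 and 319 after ASA. The 3 described starch genes, an amylase, a branching enzyme and a starch synthase, were below the control in 3 of 3 cases under both treatments in overexpression, with 2 and 1 of them by 2-fold and medians of -1.03 and -0.64.

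The remaining lists hold lactate or malate dehydrogenases, aldehyde dehydrogenases, other thiamine pyrophosphate enzymes and class I and II aminotransferases. By 2-fold, 3.21% of all genes were lower and 3.46% higher after H2O2 in wild type. In the library labelled antisense ASA these shares were 4.93% and 3.12%. In overexpression 9.52% were lower and 5.65% higher after H2O2, and 8.85% lower and 4.87% higher after ASA. Of 3 lactate or malate dehydrogenases, 0 differed by 2-fold after H2O2 in wild type or in the library labelled antisense ASA. In overexpression 1 was higher after H2O2 and 1 lower after ASA. The lactate dehydrogenase POPTR_0001s00440 ranged from 183 FPKM in the overexpression ASA library to 497 in the antisense control. Neither of the 2 described aldehyde dehydrogenases, which oxidise acetaldehyde and other aldehydes to acids, differed by 2-fold in any treated pair. Of the 2 other thiamine pyrophosphate enzymes, POPTR_0004s09350 was 2-fold higher after ASA in overexpression and neither differed by as much in the 5 remaining pairs. Of 7 class I and II aminotransferases, a class that includes alanine aminotransferase, 1 was lower after H2O2 in wild type and 2 in the library labelled antisense ASA. In overexpression 3 were higher and 2 lower after H2O2, and 1 was higher and 2 lower after ASA. The aminotransferase list was matched by description only, and the authors' deposited table names POPTR_0004s23890 MMT and POPTR_0002s11460 ACS11. These are therefore not counts of enzymes known to use pyruvate.

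**Figure D4:**
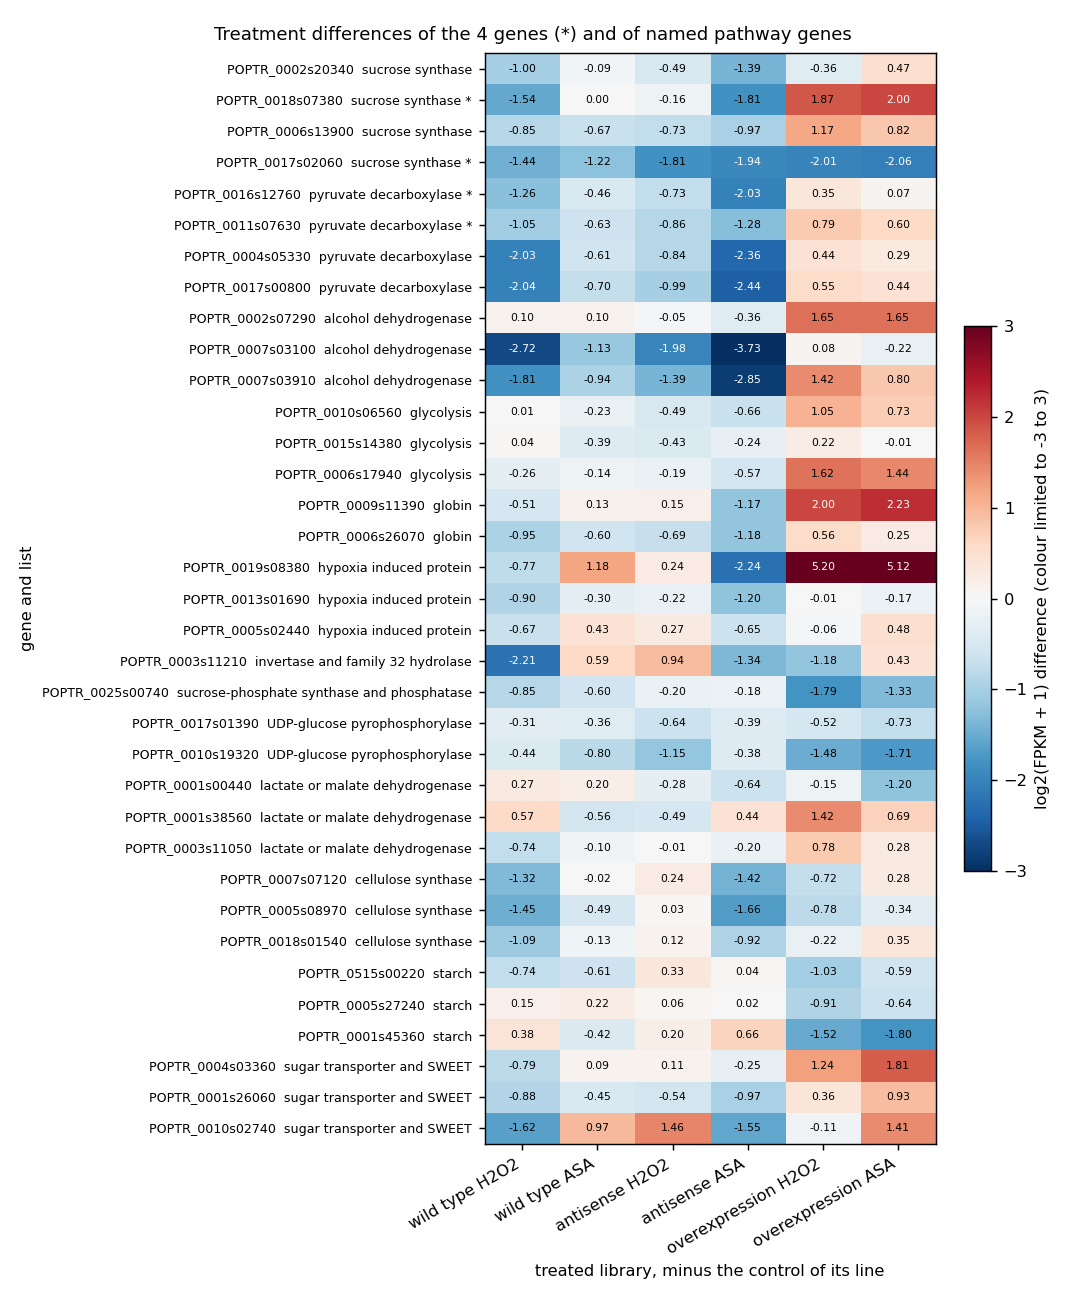
Differences of log2(FPKM + 1), treated library minus the control of its line, for the described sucrose synthases and pyruvate decarboxylases (asterisks on the 4 genes described here) and the named genes of neighbouring lists, with blue for lower and red for higher. The wild type H2O2 and antisense ASA columns are blue for each of the 8 family genes, while in the overexpression columns POPTR_0018s07380 is at 1.87 and 2.0, POPTR_0017s02060 at -2.01 and -2.06, and POPTR_0019s08380 at 5.20 and 5.12.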

How the data were processed

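The authors deposited 1 table of FPKM values for 9 libraries and 6 tables, 1 for each transgenic line and treatment, with wild type as the reference. The latter hold, per the file headers, a scaled read signal per library, a log2 fold, a p-value and a q-value. The submitters' processing notes name HTSeq 0.6.1, Bowtie2 2.2.3, TopHat and TopHat2 2.0.12. Not given in the sources used here are their roles, the genome build and the test behind the q-values. Names come from the deposited tables, which cover 2976 genes. Coordinates and sequences were not used here.

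Whole reads were recovered from the deposited FPKM values for 100% of 33158 genes with a value (relative tolerance 5e-09). They gave the depth of each library, with a floor of 3 reads worth 0.153 to 0.175 FPKM for a gene of 1 kb, and exact 95% intervals with SciPy 1.17.1. Reads shared between near-identical paralogs cannot be told apart. limma 3.58.1 in R 4.3.3 was fitted to log2(FPKM + 1) with additive line and treatment terms, a trend and Benjamini-Hochberg adjustment at 0.05 over the 23350 genes whose mean reached 1 FPKM. This scale understates changes of low genes. With no replicates, its 4 residual degrees of freedom (plus 3.31 from moderation) measure the scatter of a treatment effect over lines. The fit was also run on simulated data with additive line means and the same spread for all genes. That run cannot show how the fit behaves where treatment differences vary between lines, as they did here.

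The 4 genes and all lists were chosen with earlier results of these data known. Lists are word patterns in the deposited descriptions, some narrowed after reading them, and hold only genes the authors had listed. Named were all genes of a list of up to 4, otherwise the 3 with the highest mean FPKM, and the 3 nearest to each of the 4 genes by Pearson's r. Alternatives were other pseudocounts, filters, scalings, voom and left-out libraries.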

Additional observations from a re-analysis of the deposited data

Results flagged for a closer look

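For 3 of the 4 genes a treatment difference had opposite signs in 2 lines. Each line has 1 pair of libraries per treatment, so these differences between lines were not tested. All values are differences of log2(FPKM + 1). For POPTR_0018s07380 the H2O2 difference was 1.87 in overexpression against -1.54 in wild type, a gap of 3.41, and against -0.16 in antisense, a gap of 2.03. The ASA difference of the same gene was 2.0 in overexpression and -1.81 in antisense, 3.81 apart.

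For POPTR_0011s07630 the H2O2 difference in overexpression lay 1.85 above that in wild type and 1.66 above that in antisense. Its ASA difference lay 1.23 above wild type and 1.88 above antisense. For POPTR_0016s12760 the H2O2 gaps were 1.61 from wild type and 1.08 from antisense. The ASA gaps were 0.54 (0.535) from wild type and 2.10 from antisense, with an overexpression difference of only 0.07. Each of these 11 gaps rests on a treated overexpression library, which stood apart over all genes, and 6 of them on a treated antisense library whose direction between H2O2 and ASA went against the other lines. The part of either in the gaps was not tested. The controls and treated libraries behind the gaps also entered the comparisons by which the genes were chosen.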

How the results depend on the processing

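Of 407 recomputed limma values, 26 treatment differences changed sign and 37 values moved. The line averages carry no call, and among them that of POPTR_0018s07380 in overexpression changed sign in 3 leave-one-out fits, with a range of -1.11 to 0.61. The call for H2O2 against control went from 1 to 0 genes with pseudocounts of 0.1 and 5, with no filter, no trend, quantile or median scaling, voom, without both treated antisense libraries, and without all antisense or all overexpression libraries, and ranged from 0 to 1 over leave-one-out fits. The other treatment contrasts had 0 calls throughout. The adjusted p of POPTR_0017s02060 ran from 0.104 to 0.9999 for H2O2 and from 0.128 to 1 for ASA, while its difference ran from -2.78 to -0.85 and from -2.87 to -0.82, and with a mean of at least 5 FPKM it was not tested.

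Sign changes concerned differences that were small in the main fit, but the recomputed values were not all near 0. POPTR_0018s07380 went to -0.0820 (H2O2) and -0.0502 (ASA) under quantile scaling and to -0.850 and -0.905 without overexpression. For H2O2 minus ASA it went to 0.0375 with voom and 0.0548 without overexpression, POPTR_0017s02060 to 0.0901 with a pseudocount of 0.1, POPTR_0011s07630 to -0.114 without the treated or all antisense libraries and -0.000605 without overexpression, and POPTR_0016s12760 to -0.260 without the treated or all antisense libraries. The cause was not tested.

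Leave-one-out ranges were -0.881 to 0.840 (H2O2), -0.874 to 0.948 (ASA) and -0.891 to 0.776 (H2O2 minus ASA) for POPTR_0018s07380, and for H2O2 minus ASA -0.112 to 0.165 for POPTR_0017s02060, -0.260 to 0.358 for POPTR_0011s07630 and -0.306 to 0.701 for POPTR_0016s12760. The line counts ranged from 0 to 30 (antisense) and 70 to 1478 (overexpression). With a pseudocount of 0.1 the antisense count was 3, and POPTR_0017s02060 differed by -1.83 in antisense and -3.66 in overexpression. Pearson's r between POPTR_0018s07380 and POPTR_0017s02060 went to -0.158 without both treated antisense libraries, an alternative chosen after seeing the data. No pairing by replicate was possible because each group holds 1 library. The line term of the fit compares treated with control within lines. Depth limits only POPTR_0017s02060, with 3 to 625 reads.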
